A study of Saccharomyces cerevisiae with 6 samples.

Results

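The messenger RNA of wild-type budding yeast in exponential growth was described from the 2 libraries titled wild type, of 6 libraries in 3 groups of 2 in the study, and no group was compared with them. Open reading frames (ORFs) were ranked by level, and 5539 of the 6525 ORFs in the deposited table could be ranked. The study sequenced poly(A) RNA on both strands after adding RNA of the fission yeast Schizosaccharomyces pombe as a spike-in, at 10 parts of budding yeast RNA to 1 part of fission yeast RNA by mass. The other groups, which lack RTT109 or both HST3 and HST4, were not used.

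The strain called wild type is itself engineered. It is MATa and carries the alleles can1-100, ura3-1, trp1-1 and leu2-3 112, together with his3-11 15 and an ADE2 copy written as ade2-1::ADE2. It also carries Rpb3-3HA::TRP, a tagged subunit of RNA polymerase II, URA3::GDP-TK(7x), AUR1c::ADH-Hent1 and Δbar1::HIS3. Cells grew exponentially in YPD, a rich glucose medium. RNA was extracted with Trizol, treated with DNase I, selected with oligo-dT and made into libraries with a TruSeq Stranded mRNA kit. Nothing in the labels says that the replicates were separate cultures, so an SD here is the spread between 2 libraries, which may be technical.

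Yeast that grows fast on glucose ferments it to ethanol, keeps most genes for other carbon sources silent, and spends much of its transcription on ribosomes. Ribosomal protein genes share regulators that couple them to nutrient signals, and a separate set of genes makes the factors that assemble the ribosome. Glycolytic genes often come as isozymes, of which 1 serves growth on glucose and the others are used in starvation, on other carbon sources or at low oxygen.

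The level of an ORF was its mean coverage on the sense strand per bin of 50 bases, over its coding bins, as scaled by the authors to the spike-in, so it is a value per length and not a read count. In the deposited table the coverage lay to the left of the table's own ORFs. The offset was 2 bins, or 100 bases, on 14 of 16 chromosomes, 3 bins on chromosome 2, and on chromosome 10 it was 2 bins up to position 122000 of the table and 8 bins, or 400 bases, beyond it. As deposited, median coverage of Watson-strand ORFs reached 50% of the ORF mean 110 bases before the first bin in replicate 1 and 105 bases before it in replicate 2. For Crick-strand ORFs the same point came 93.4 and 98.97 bases after the first bin. Levels were therefore read at the offset positions, after which that point lay within 4.84 bases of the first bin on both strands and in both libraries. The offset was chosen to place coverage best on ORFs, so this closeness is not an independent check of it. The mean level of 220 ranked ORFs then differed by more than 1.5-fold from the value at the deposited positions, and such cases are given beside the genes named.

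**Figure D1:**
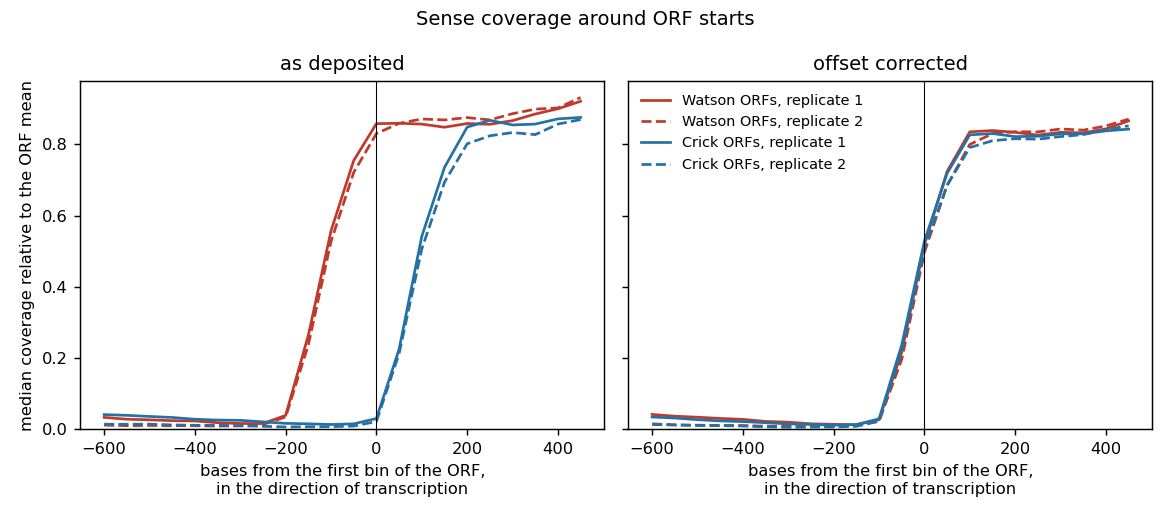
Median sense coverage around ORF starts, relative to the mean of each ORF (y axis, no unit), against distance from the first bin in bases along the direction of transcription (x axis), as deposited (left) and after the offset was corrected (right). Red lines are Watson-strand ORFs and blue lines Crick-strand ORFs, solid for replicate 1 and dashed for replicate 2; before correction the strands stand apart on either side of the start, and after it they coincide.

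The coverage summed to 678558 in replicate 1 and 784679 in replicate 2 over both strands, a ratio of 1.16. Values at 0 made up 7.51% of replicate 1 and 25.7% of replicate 2. The commonest step above 0 was 0.00397 and 0.00543, so the numbers of reads are unknown and no counting interval can be given. ORFs on their sense strand held 89.4% of the coverage in replicate 1 and 92.4% in replicate 2. A further 6.04% and 4.88% lay within 200 bases of an ORF on the same strand.

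The labels were first checked against genes that mark the strain. BAR1, which encodes the protease that degrades alpha factor and is deleted in this strain, was at 0.00011 in replicate 1 and 0 in replicate 2. The MATa genes were present in both libraries, and MFA2, a gene of the a-factor pheromone, was at 73.0 and 83.4. STE2, the alpha-factor receptor, was at 15.05 and 30.03. Summed over the 6 a-specific genes, the level was 116 in replicate 1 and 141 in replicate 2, against 0.591 and 0.583 over the 3 ranked alpha-specific genes. Of those, MF(ALPHA)1 and MF(ALPHA)2 lay in the lowest decile of ORFs and SAG1, the alpha-agglutinin, was at 0.531 and 0.527. The mating type of the label and the deletion of BAR1 were thus both seen in the RNA.

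Among the marker genes of the genotype, URA3, an enzyme of pyrimidine synthesis, was highest, at 37.2 and 48.4. TRP1, of tryptophan synthesis, was at 14.4 and 20.03, and LEU2, of leucine synthesis, at 8.48 and 10.2. ADE2, of purine synthesis, was at 0.513 and 0.592. Levels of a gene with more than 1 copy, or with a copy in a marker, cannot be divided between the copies. RPB3, the tagged polymerase subunit, was at 3.44 and 4.00, and AUR1, an enzyme of sphingolipid synthesis, at 7.29 and 6.64. CAN1, the arginine permease, was at 1.95 and 2.15, and HIS3, of histidine synthesis, at 0.974 and 1.63.

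Markers of other cell states were low. Of 7 ranked sporulation markers, 5 lay in the lowest decile of ORFs, and the highest of them was SPO11, the meiotic break enzyme, at 0.364 and 0.250. Of 11 markers of starved or stationary cells, 6 lay in the lowest decile and 10 below the median. The exception was HSP12, a small membrane-stabilising stress protein, at 0.569 in replicate 1 and 3.80 in replicate 2.

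The RNA was concentrated in few genes. The 10 highest ORFs held 7.34% of all ORF coverage in replicate 1 and 6.12% in replicate 2. The 100 highest held 30.7% and 28.8% (29.7% ± 1.33, SD, n = 2), and 331 ORFs held 50% of it. The lower-ranked 50% of ORFs held 10.9% ± 0.385 (SD, n = 2). The median level was 1.38 in replicate 1 and 1.699 in replicate 2. An ORF at percentile 99 lay 82.5-fold above the median, and an ORF at percentile 10 was at 0.122 of it. PPT2, VPS51 and MIF2 were the named genes nearest the median, and MIF2, a centromere protein, was at 1.28 and 1.84. Of the ranked ORFs, 16 were at 0 in both libraries.

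**Figure D2:**
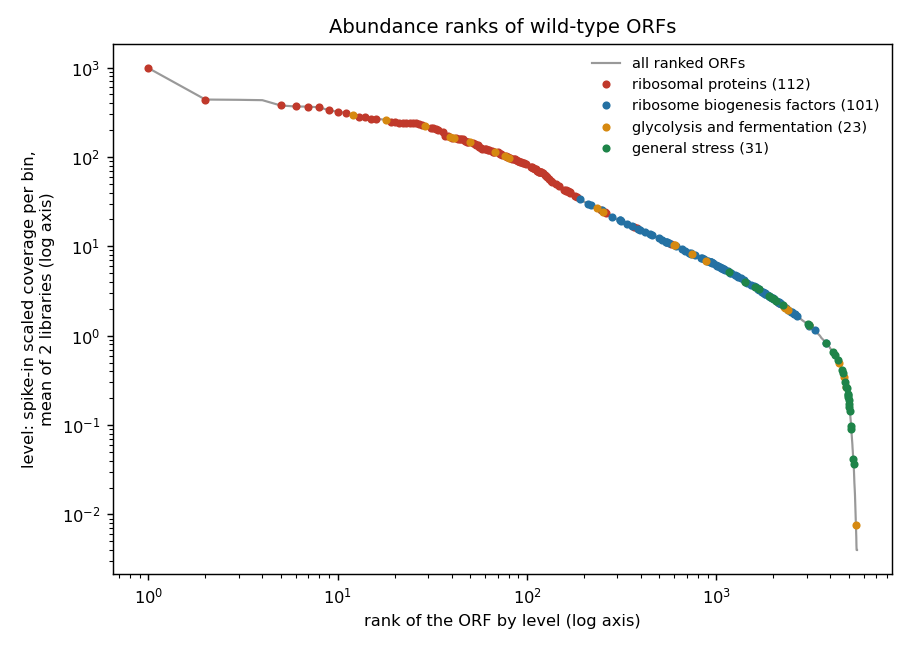
Level of each ranked ORF (y axis, spike-in scaled coverage per bin of 50 bases, mean of 2 libraries, log axis) against its rank (x axis, log axis). The grey line is all ranked ORFs and the points are 4 gene lists; ribosomal protein genes fill most of the top of the curve, ribosome biogenesis factors lie mostly above the median rank, with 97 of 101 there, and general stress genes mostly its lower part.

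Of the 20 highest ranked ORFs, 15 encoded ribosomal proteins, and of the 100 highest 73 did. Some genes with repeated sequence were not ranked though their levels would place them here. The means of RPL41A and RPL41B were 287 and 308, above the 245 at rank 20. Those of RPL42B, RPS24A and RPL42A were 121, 89.3 and 88.2, above the 83.0 at rank 100. RPL8B, with a mean of 83.6, was not ranked because its bins covered 45.4% of its coding length. RPS31, a fusion of ubiquitin and a protein of the small subunit, was first, at 1126 in replicate 1 and 847 in replicate 2. RPL38 of the large subunit was at 548 and 329, and RPL39 at 452 and 190. At the deposited positions their means were lower, 289 against 439 for RPL38 and 94.7 against 321 for RPL39, and the rank of such short ORFs depends on the correction. Other leading members were higher in replicate 2: RPS20 was at 301 and 452, and RPL10 at 252 and 465. RPL30 was at 361 and 373, with 240 as its mean at the deposited positions.

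The 5 other genes of the 20 highest had varied roles. TMA19, a conserved protein that associates with ribosomes, was at 448 and 424. ZEO1, a membrane-associated protein of the cell wall integrity pathway, was at 527 and 336. TDH3, the main glyceraldehyde-3-phosphate dehydrogenase, was at 317 and 276, and FBA1, the aldolase of glycolysis, at 268 and 251. CCW12, a cell wall mannoprotein, was at 264 and 263, nearly the same in both libraries. All 20 were among the 40 highest of each library, and 86 of the 100 highest of replicate 1 were among the 100 highest of replicate 2.

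All ranked ribosomal protein genes together, 112 of 138, held 23.6% of ORF coverage in replicate 1 and 23.9% in replicate 2. The 49 of the small subunit all lay in the highest decile of ORFs, with a median level of 116 and 136. Of the 63 of the large subunit, 61 did, with a median level of 70.0 and 121. The lowest was RPL15B, at 1.702 and 2.999, while its copy RPL15A was at 113 and 215. Many of these genes have a near-identical copy: 54 of the 112 shared at least one stretch of 50 bases with another place in the genome, so their split between copies is uncertain. ORFs with over 30% of such stretches were not ranked, which left out TEF1 and TEF2, the genes of elongation factor 1A.

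The other parts of the translation machinery were lower but still high. Of 8 ranked elongation factors 5 were in the highest decile, led by HYP2, elongation factor 5A, at 152 and 246. Of 26 initiation factors 11 were in the highest decile, led by CDC33, the cap-binding protein, at 76.2 and 103. All 17 aminoacyl-tRNA synthetases, which charge tRNAs, lay above the median of all ORFs, and SES1, the seryl-tRNA synthetase, was highest at 20.3 and 38.6. Ribosome biogenesis factors had a median percentile of 76.8 ± 5.94 (SD, n = 2), with 20 of 101 in the highest decile. NOP56, a core protein of box C/D nucleolar particles, led them at 24.5 and 43.9. UTP30 was the lowest, at 0.931 and 0.724.

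Glycolysis and fermentation held 6.58% of ORF coverage in replicate 1 and 5.17% in replicate 2, with 11 of 23 genes in the highest decile. GPM1, the phosphoglycerate mutase, was at 226 and 213. PGK1, the phosphoglycerate kinase, was at 99.6 and 97.5, and TPI1, the triose phosphate isomerase, at 107 and 121. Some upper steps of the pathway, given next, were at lower levels than GPM1, PGK1 and TPI1. The aldolase FBA1, also an upper step, was above all of these, with a mean of 260 over both libraries. PGI1, the glucose-6-phosphate isomerase, was at 22.8 and 25.7, and the phosphofructokinase subunits PFK1 and PFK2 were at 7.63 and 6.19, and at 8.86 and 7.47. These genes spread widely, with a 62.8-fold interquartile range against 6.21-fold over all ORFs.

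Isozymes and paralogs differed widely in the pairs chosen. In 20 pairs, a gene known as the main or constitutive form was set against a relative known as minor or for other conditions. Not all pairs concern glucose, since Hsp90, cytochrome c, citrate synthase and ribonucleotide reductase are among them. Both levels were available in 18 pairs, and the first gene was higher in both libraries in all 18, by over 10-fold in 15. The pairs were picked by these known roles, and PDC1 was paired with both PDC5 and PDC6. The counts therefore describe the chosen pairs and do not test isozymes in general. CDC19, the pyruvate kinase of growing cells, was at 109 and 98.4, while PYK2 was at 0.295 and 0.238, a ratio of 369 and 413. PDC1, the main pyruvate decarboxylase, was at 162 and 160, PDC5 at 0.323 and 0.370, and PDC6 near the smallest step of the data. ADH1, which makes ethanol, was at 171 and 161, and ADH2, which consumes it, at 0.0405 and 0.0279.

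The same held beyond glycolysis. PMA1, the plasma membrane proton pump, was at 49.1 and 53.3, and PMA2 at 0.105 and 0.122. HYP2 exceeded ANB1, its relative known for low oxygen, which was at 0.0759 and 0.0711; at the deposited positions the mean of ANB1 was 0.0179. Narrower gaps were found for chaperones and respiration. HSC82, the constitutive Hsp90, was at 34.1 and 37.5 and HSP82, the inducible one, at 6.73 and 3.80. COX5A, a subunit of cytochrome c oxidase used with oxygen, was 3.88-fold and 8.22-fold above COX5B. ENO1 differed between the libraries, at 14.9 and 5.58, and so did TDH1, at 2.41 and 0.239 (0.854 as its mean at the deposited positions), while ENO2, the main enolase, was at 157 and 134. Reads that these relatives share could not be divided in such pairs, and 23.6% of ENO2 and 24.4% of TDH3 stretches had another match.

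**Figure D3:**
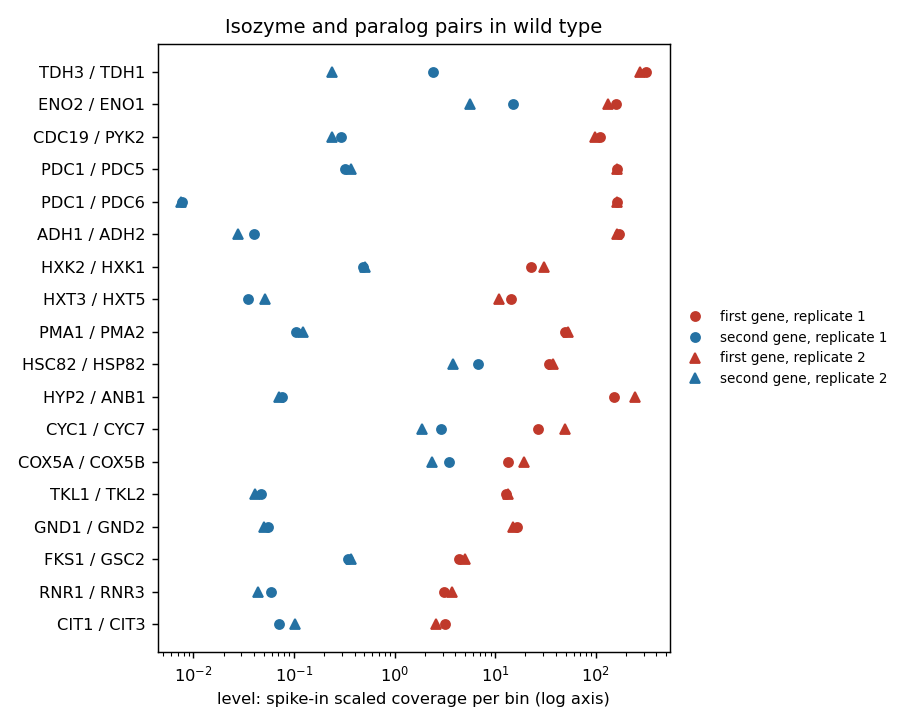
Levels (x axis, spike-in scaled coverage per bin, log axis) of 18 isozyme and paralog pairs (y axis). The gene known as the main or constitutive form is in red and its relative in blue. Circles are replicate 1 and triangles replicate 2; in every pair both red points lie to the right of both blue points.

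Preferred codons were more frequent at higher levels. The codon most used for each amino acid in the ribosomal protein genes was called preferred, 18 in all, and the ribosomal protein genes were then left out. The starts of 2 of the 18 isozyme and paralog pairs are shown as examples, since all 18 pairs were at unequal levels. Each line gives the first 30 codons of the RefSeq R64 reference strain, 5′ to 3′, with preferred codons in capitals. They lie at chr1:71786-71875 (plus strand) for CDC19, chr15:986373-986462 (minus) for PYK2, chr7:482577-482666 (minus) for PMA1 and chr16:482843-482932 (plus) for PMA2.
CDC19: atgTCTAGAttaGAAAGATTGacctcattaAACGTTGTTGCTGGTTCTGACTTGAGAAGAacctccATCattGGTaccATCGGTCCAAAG
PYK2: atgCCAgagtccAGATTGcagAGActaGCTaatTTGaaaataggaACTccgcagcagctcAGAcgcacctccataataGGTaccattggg
PMA1: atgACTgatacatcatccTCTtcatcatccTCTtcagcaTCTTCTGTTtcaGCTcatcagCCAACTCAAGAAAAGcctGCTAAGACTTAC
PMA2: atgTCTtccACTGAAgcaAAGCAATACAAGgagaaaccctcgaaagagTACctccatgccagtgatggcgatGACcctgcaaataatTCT
CDC19 had 21 preferred codons of 30 and PYK2 9, and PMA1 had 16 and PMA2 10. Not every pair showed such a gap. Over the whole coding sequence PDC1 had 79.7% preferred codons and PDC5 74.2%, though the level of PDC1 was 503-fold and 434-fold higher in replicates 1 and 2.

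Across 5410 ORFs without the ribosomal proteins, the percentage of preferred codons and the level had a Spearman rho of 0.462, a description over genes that share libraries and base composition. The median percentage was 36.3 in the lowest decile by level, 38.2 in the sixth and 50 in the highest. The increase thus lay mostly in the upper deciles. TDH3 had 79.8% preferred codons and FBA1 81.9%. Among the 100 highest ORFs without the ribosomal proteins, MTC7 had the fewest, 23.5%. Its level of 43.1 and 49.2 rests on the offset correction, since its mean was 8.47 at the deposited positions. Coverage that runs over from a neighbouring gene was not separated from its own. Level and coding length went in opposite directions, with a Spearman rho of -0.277 over 5539 ORFs.

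Histone, energy and protein turnover genes were also high. The 8 core histone genes all lay in the highest decile, led by HHF2, a histone H4 gene, at 131 and 159. Histone transcripts are made mainly in S phase, and the labels do not call the cultures synchronised. Respiratory chain and ATP synthase genes had 23 of 34 in the highest decile and none below the median, and QCR9, a subunit of complex III, was at 47.5 and 30.9, with a mean of 19.9 at the deposited positions. The 32 proteasome genes all lay above the median, from RPN1 at 3.83 and 4.46 to RPN8 at 29.98 and 27.3, both of the regulatory particle. The CCT chaperonin, which folds actin and tubulin, had similar levels in all its genes. Its 8 genes had a 1.21-fold interquartile range and ran from TCP1 at 4.72 and 7.04 to CCT3 at 7.26 and 11.8.

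Lists of biosynthesis genes differed in level. Of 56 genes of amino acid synthesis 55 lay above the median, with ILV5 of branched-chain synthesis highest at 26.2 and 43.5, and BAT2, the cytosolic branched-chain aminotransferase, lowest at 1.01 and 1.37. Of 24 ergosterol genes 11 lay in the highest decile. ERG25, a sterol methyl oxidase, was at 27.9 and 21.7, and HMG2, the minor HMG-CoA reductase, at 0.443 and 0.383. OLE1, the fatty acid desaturase, was at 19.3 and 25.98. Sulfate assimilation and methionine genes had a median percentile of 50.1 ± 5.50 (SD, n = 2), with 9 of 19 above the median and 4 in the lowest decile. Genes of thiamine, pyridoxine and biotin synthesis had a median percentile of 20.97 ± 2.27 (SD, n = 2), with 2 of 14 above the median and 4 in the lowest decile.

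Regulators and genes of replication and repair lay near or below the median. The median percentile was 42.9 ± 3.01 for 70 transcription factors, 43.5 ± 2.72 for 48 DNA replication genes, 36.2 ± 1.98 for 47 chromatin genes and 27.8 ± 1.10 for 46 recombination and repair genes (SD, n = 2 each). These lists hold long ORFs, with a median of 42, 34, 44 and 40 coding bins in that order, against 25 over all ranked ORFs. Ribosomal proteins and core histones had a median of 9. Level fell with coding length over all ranked ORFs (Spearman rho -0.277), and the part of length in the ranks of the lists was not tested. GCN4, the activator of amino acid synthesis whose translation is held back in rich medium, stood out among the factors at 39.8 and 64.7. CAT8, an activator of gluconeogenesis, was lowest at 0.0359 and 0.0404. Cell cycle regulators included SIC1, the inhibitor of the S-phase kinase, at 4.88 and 3.77, and CLB6, an S-phase cyclin, at 0.112 and 0.243. MEC1, the checkpoint kinase, was at 0.150 and 0.179.

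Genes for other conditions lay at the bottom. Of 12 genes of gluconeogenesis and ethanol use, 8 were in the lowest decile and none above the median. Of 7 galactose genes, 6 were in the lowest decile, with GAL1, the galactokinase, at 0.0903 and 0.106. GAL80, the repressor that binds Gal4, was the exception at 1.58 and 1.42. Of 35 meiosis and sporulation genes 23 were in the lowest decile. Of 10 ranked hexose transporters 5 were in the lowest decile, whereas HXT3 was at 14.2 and 10.8 and HXT1 at 11.7 and 10.7, both low-affinity transporters. Of 31 general stress genes 22 lay below the median, led by HSP104, the disaggregase, at 6.82 and 3.47.

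**Figure D4:**
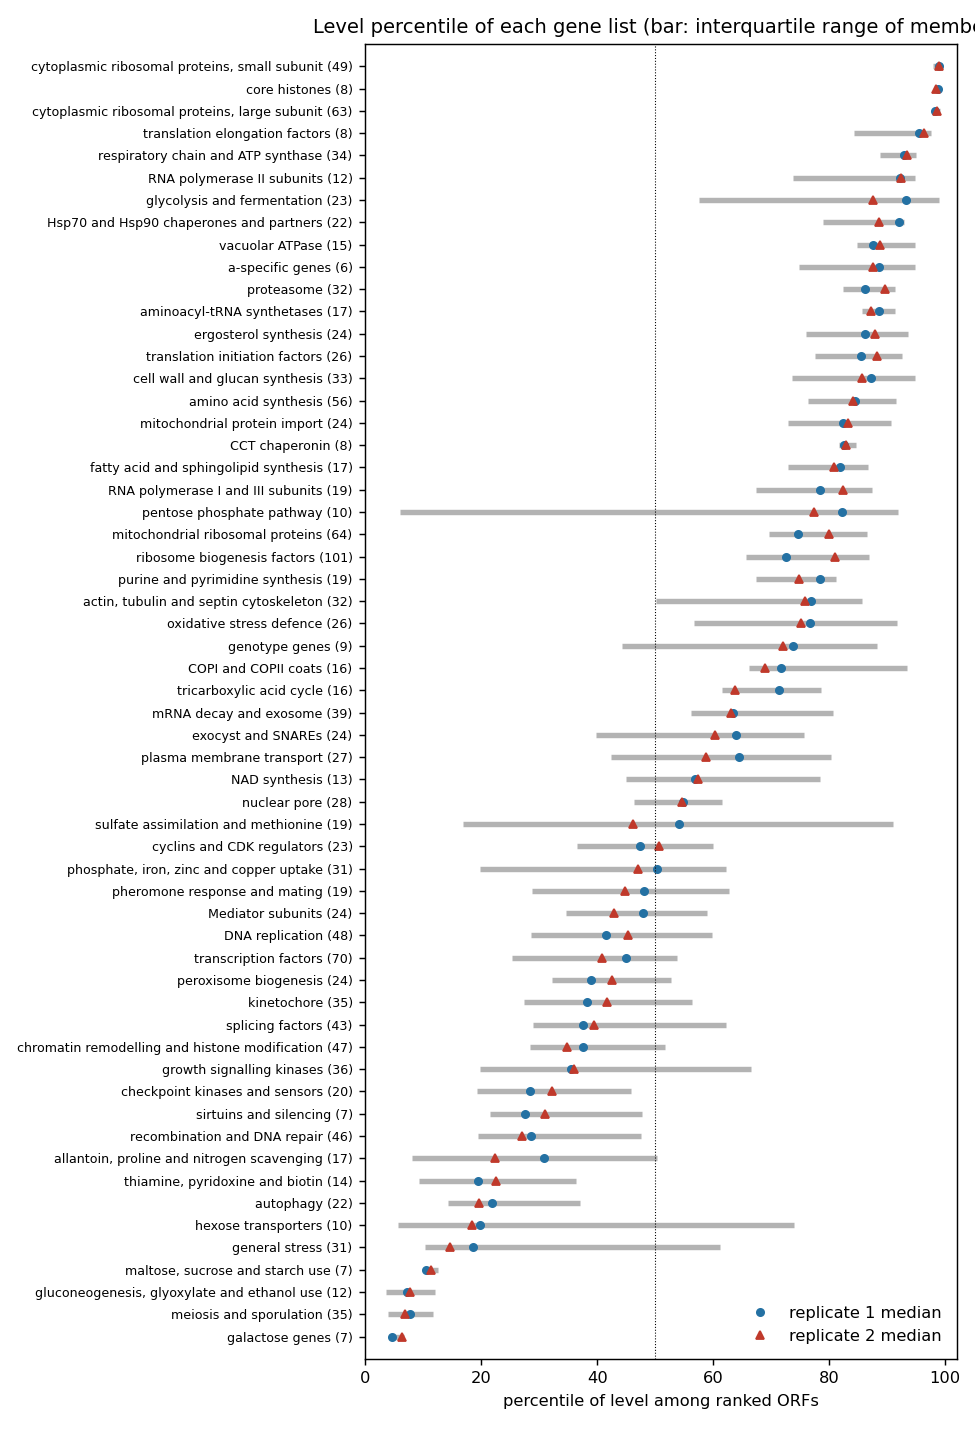
Level percentile among the 5539 ranked ORFs (x axis) of each gene list with 5 or more ranked members (y axis, number ranked in brackets). Circles and triangles are the list medians in replicates 1 and 2, grey bars the interquartile range of members by mean level and the dotted line the median of all ORFs; ribosomal proteins and histones are at the right edge and galactose, meiosis and gluconeogenesis genes at the left.

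The libraries agreed closely across ORFs, though some single ORFs differed in level. Over 5539 ORFs, Pearson's r of log2(level + 0.0515) was 0.975 and Spearman's rho 0.969, given as a description across genes and not across samples. Replicate 2 was higher by a median of 0.18 on the log2 scale, or 1.13-fold. The levels of 381 ORFs, 6.88%, were over 2-fold apart, 294 (5.31%) higher in replicate 2 and 87 (1.57%) higher in replicate 1. When the median difference was removed, 266 were, 130 higher in replicate 2 and 136 in replicate 1. The share over 2-fold apart was 3.44% in the lowest decile by level, 2.89% in the third, 7.04% in the sixth and 11.7% in the highest. The median level was 0.045 in the lowest decile and 0.641 in the third. The added constant pulls ratios together at the lowest levels, and its part in these shares was not tested.

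The differences were not spread evenly over the lists. Ribosome biogenesis factors were higher in replicate 2 in 98 of 101, against 3745 of all 5539 ranked ORFs, by a median of 0.75 on the log2 scale, and 26 were over 2-fold higher. MAK16, a factor of large subunit assembly, was at 4.89 and 17.03. Ribosomal proteins of the large subunit had a median difference of 0.45 and those of the small subunit 0.25. General stress genes went the other way, with a median of -0.26, 5 of 31 over 2-fold higher in replicate 1 and 2 of 31 over 2-fold higher in replicate 2. Glycolysis and fermentation had a median of -0.09. These values are not corrected for the median of 0.18 over all ORFs.

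MAK16 and the next genes have the 5 largest differences in each direction among ORFs at or above the median level. Larger ones than some of these occurred below it, such as TDH1, an isoform of glyceraldehyde-3-phosphate dehydrogenase, at 2.41 and 0.239. ARO10 and ARO9, which break down aromatic amino acids, were at 0.237 and 5.14, and at 0.523 and 3.60. HSP12 and NCE103, the carbonic anhydrase, were also higher in replicate 2, with NCE103 at 5.56 and 27.6. HSP30, a membrane protein of stress and stationary phase, was at 4.601 and 0.346. TMA10 was at 4.57 and 0.799, its relative STF2, a stabiliser of the inhibited ATP synthase, at 20.4 and 4.23, and HSP42, a small heat shock protein, at 4.35 and 0.767. The fifth of these was YGL088W, at 2.91 and 0.721. Stress genes thus did not all differ in 1 direction, and nothing in the labels gives a culture, date or batch for either library.

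**Figure D5:**
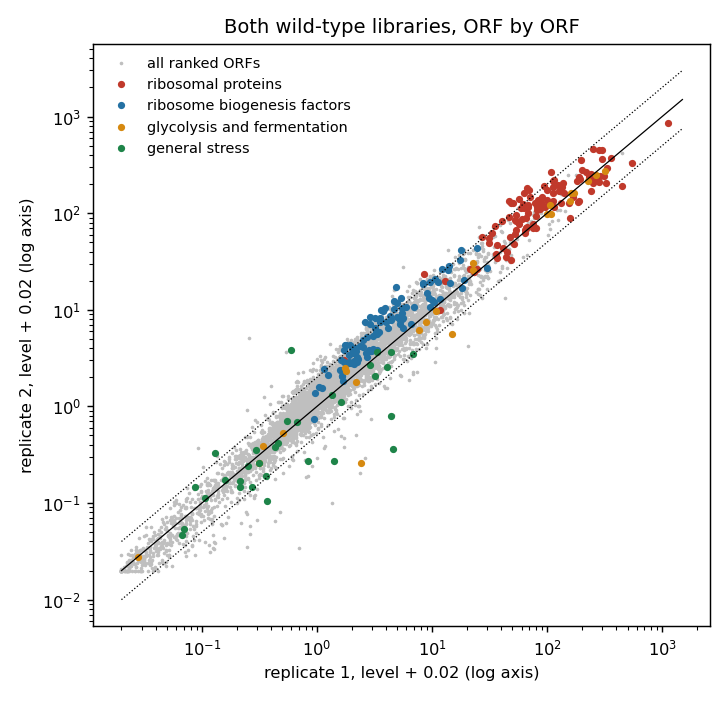
Level of each ranked ORF in replicate 1 (x axis) and replicate 2 (y axis), both spike-in scaled coverage per bin plus 0.02 on log axes. The solid line marks equal levels and dotted lines 2-fold differences; ribosome biogenesis factors (blue) lie mostly above the solid line and several general stress genes (green) lie below the lower dotted line.

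The promoters of 4 genes are shown because their lists differed in level or between the replicates. Each runs from 250 bases before to 50 bases after the start of the coding sequence, 5′ to 3′ on the coding strand in R64, with the motif in capitals, searched on both strands in the 250 bases before the start. NOP56 (chr12:545847-546146, plus strand) and MAK16 (chr1:101096-101395, minus) are ribosome biogenesis genes with GATGAG, the core of the PAC element. TDH3 (chr7:883761-884060, minus) is shown with TATAAA, the core of a TATA box, and HSP12 (chr6:107006-107305, plus) with AGGGG, the core of the stress response element. HSP12 itself was higher in replicate 2, at 0.569 and 3.80, opposite to the median of -0.26 of the general stress genes.
NOP56: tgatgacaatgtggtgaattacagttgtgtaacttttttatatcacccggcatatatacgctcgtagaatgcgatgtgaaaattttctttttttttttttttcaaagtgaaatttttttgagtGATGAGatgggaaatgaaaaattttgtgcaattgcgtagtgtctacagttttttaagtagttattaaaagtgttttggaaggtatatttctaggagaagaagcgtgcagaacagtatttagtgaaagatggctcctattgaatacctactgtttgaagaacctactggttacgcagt
MAK16: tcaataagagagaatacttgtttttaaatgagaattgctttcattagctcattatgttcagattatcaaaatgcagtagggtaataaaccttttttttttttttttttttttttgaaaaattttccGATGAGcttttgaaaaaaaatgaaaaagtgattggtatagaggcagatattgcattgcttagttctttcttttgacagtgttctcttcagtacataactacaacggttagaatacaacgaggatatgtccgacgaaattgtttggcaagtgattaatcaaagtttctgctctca
TDH3: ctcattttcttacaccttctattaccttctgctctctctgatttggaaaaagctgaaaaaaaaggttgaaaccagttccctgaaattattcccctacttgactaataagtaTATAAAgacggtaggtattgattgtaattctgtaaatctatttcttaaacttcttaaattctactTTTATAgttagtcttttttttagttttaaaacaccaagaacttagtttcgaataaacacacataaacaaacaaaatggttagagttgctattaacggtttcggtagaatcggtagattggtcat
HSP12: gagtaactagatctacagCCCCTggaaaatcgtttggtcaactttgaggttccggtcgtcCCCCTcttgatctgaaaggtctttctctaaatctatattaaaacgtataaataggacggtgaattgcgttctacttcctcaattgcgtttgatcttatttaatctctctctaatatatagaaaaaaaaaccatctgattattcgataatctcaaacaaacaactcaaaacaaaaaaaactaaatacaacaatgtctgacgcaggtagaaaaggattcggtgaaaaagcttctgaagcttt
GATGAG was present in 93 of 101 promoters of ribosome biogenesis factors (92.1%) and in 16.2% of all 5539. TATAAA was in 19 of 23 glycolysis and fermentation promoters (82.6%), 24 of 112 ribosomal protein promoters (21.4%) and 42.5% of all. It was also in 22 of 31 general stress promoters (71.0%), 22 of 33 of cell wall and glucan synthesis (66.7%), 8 of 12 of gluconeogenesis, glyoxylate and ethanol use (66.7%) and 5 of 8 of core histones (62.5%). AGGGG was in 18 of 31 general stress promoters (58.1%), 4 of 8 core histone promoters, 13 of 34 of the respiratory chain and ATP synthase (38.2%) and 19.1% of all. CTTCC, the core bound by Gcr1, was in 11 of 23 glycolysis and fermentation promoters (47.8%) and 38.3% of all. It was also in 56 of 112 promoters of ribosomal proteins, 15 of 31 of general stress (48.4%), 7 of 12 of gluconeogenesis, glyoxylate and ethanol use (58.3%), 27 of 101 of ribosome biogenesis factors (26.7%) and 52 of the 100 highest ORFs. CCCNTACA, a core of the Rap1 site, was in 5 of 112 ribosomal protein promoters and 1.64% of all. Sites over 250 bases before the start, or of another form, were not searched, so these counts do not give how many promoters have a Rap1 site. A match is a description and no binding was measured.

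The shape of coverage along ORFs differed with their length. In ORFs of 1 to 2 kb, the first 10% of the length was at 0.739 of the ORF mean in replicate 1 and 0.738 in replicate 2, the ninth 10% at 1.28 and 1.22, and the last 10% at 0.971 and 0.821. In ORFs over 3 kb the first 10% was at 0.505 and 0.330, and the last 10% at 2.00 and 2.09. Levels of long ORFs thus rest more on their 3′ part, and more so in replicate 2.

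The sense strand held 97.7% of the coverage over ORFs free of an ORF on the other strand in replicate 1 and 99.2% in replicate 2. Over the 1385 ORFs of the highest quartile by level, the opposite strand was at a median of 1.63% of the sense strand in replicate 1, with 10% and 90% of ORFs at 1.35% and 2.57%. In replicate 2 the median was 0.138%, from 0.0358% to 0.972%. The opposite-strand level of replicate 1 thus tracked the sense level in a narrow band, with a Pearson r of 0.942 on the log2 scale across these ORFs against 0.355 in replicate 2. Antisense values of replicate 1 at a few percent of a sense level are not told apart from this band.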

How the data were processed

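Both wild-type libraries were used, each with the group and number of its title. The deposited table holds a coverage signal per bin of 50 bases for each strand. The authors scaled it to the S. pombe spike-in in the columns used here, per the file headers, and to 1 in others. CASAVA 1.7.0 and the S. pombe build ASM294v2 are named in the submitters' processing notes; the sources used here name neither the aligner nor the budding yeast build. The letter R, undefined in the file, fills 11670 of 240976 bins (4.84%), which were left out.

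Names came from RefSeq R64, in which 5871 of 6525 ORFs matched a protein-coding gene. Sequences are of R64, on which none of the table's coordinates were placed. Offsets between coverage and ORFs were found per chromosome, with at most 1 break, as the shift that best places log2 coverage on ORFs. ORFs were ranked if usable coding bins covered at least 50% of the coding length and at most 30% of its windows of 50 bases occurred elsewhere in R64. Of the matched ORFs 332 were not ranked, 242 for too few bins and 196 for repeats, some for both. Those left out with no repeated window, such as PRP8, SIR2 and SEC61, lay on the Crick strand. The ranking thus lacks some unique genes, unevenly by strand, and the cause was not tested. The offset correction and this rule were chosen after the data were seen, and the planned levels used the deposited bins. Ratios used log2(level + 0.0515), the percentile 5 of levels above 0. Offset finding and levels were tested on simulated data.

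The members and the gene lists were chosen with earlier results of these data known. Of the 61 lists, 5 symbols matched no gene and are not measured here. Genes named were the 20 highest, the highest and lowest of a list, the genes of the genotype and mating type, the isozyme pairs, the 5 largest differences between replicates each way among ORFs at or above the median, and the 3 named ORFs nearest the median; the text names some of them. RPL15A, GPM1, PGK1, TPI1, PGI1, PFK1, PFK2, HXT1, GAL1, OLE1, TDH1 and MTC7 and the genes of the closing section were chosen after their values were seen. No test was run, since 2 libraries of 1 group hold no contrast. Python 3.11.15, numpy 2.4.6, pandas 2.3.3 and scipy 1.17.1 were used.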

Additional observations from a re-analysis of the deposited data

How the results depend on the processing

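No paired analysis was possible because the results come from 1 group and no test. Leaving out either library gave 28.9% to 31.0% for the share of the 100 highest ORFs, 309 to 339 ORFs for 50% of the coverage, 5.17% to 6.58% for glycolysis, 11.0% to 11.8% and 12.1% to 12.6% for ribosomal proteins of the large and small subunit, and 97.7% to 99.2% for the sense strand. With the columns normalized to 1, the median log2 ratio between replicates was -0.00163 in place of 0.18, so the direction depends on the spike-in scaling. That ratio was 0.19 on interior bins, 0.16 with the median over bins, 0.23 without the lowest 10% of ORFs, 0.21 with at least 10 bins, 0.11 with a constant 10 times larger and 0.17 over all matched ORFs. The larger constant left 200 ORFs over 2-fold apart in place of 381. Pearson's r was 0.974 with the median over bins and at the deposited positions (0.97444 and 0.97355), 0.964 without the lowest 10%, 0.973 with at least 10 bins and 0.973 with the larger constant (0.97286 and 0.97254). The share of the 100 highest was 31.6% with the median over bins and 28.2% at the deposited positions. With at least 10 bins, glycolysis held 7.06% and the ribosomal proteins 7.495% (large) and 8.71% (small), since short ORFs are then left out, and their median percentiles were 99.2 and 99.4. The large subunit held 12.5% with the median over bins, 10.03% at the deposited positions and 12.01% over all matched ORFs. The small subunit held 11.99% on interior bins, 13.1% with the median over bins and 11.1% at the deposited positions, and its median percentile was 98.87 without the lowest 10%, 98.86 at the deposited positions and 98.8 over all matched ORFs. The deposited positions and all matched ORFs were alternatives chosen after seeing the data. The cause of the other moves was not tested. The depth in reads is unknown, so levels near the smallest step have no interval.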

Other observations

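Some genes combined a low level with many preferred codons. Among ORFs of the lowest 3 deciles by level, PDC5, the second pyruvate decarboxylase, had 74.2% preferred codons at a level of 0.323 and 0.370. TIR1, a cell wall mannoprotein of anaerobic growth, had 72.4% at 0.0341 and 0.0169. ANB1 had 67.8% and ADH2 67.8%, and the median of the lowest decile was 36.3%. These are relatives or genes for other conditions, and no cause was tested.

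Of 4761 ORFs with 6 or more coding bins over 500 bases from any ORF on the other strand, 62 had more antisense than sense coverage in both libraries and an antisense level above 0.189, percentile 10 of sense levels. IME4, a methyltransferase of meiotic entry known for its antisense RNA, was at 0.0127 and 0.00362 on the sense strand and 0.884 and 0.624 on the antisense strand. SHH3, a relative of a mitochondrial membrane anchor, was at 0.0471 and 0.0388 sense and 0.785 and 2.01 antisense.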
